A study of Mus musculus with 18 samples.

Results

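The 9 genes described here are the complement gene C1rl and 8 genes of the complement system that were read with it, namely C1ra, C1s1, C3, C4b, Cfb, Serping1, Cd55 and Masp1. They were found by name among the 51499 assembled loci of the deposited table, and all 9 were in it. A locus counted as expressed when its mean over the groups reached 0.5 FPKM (sequenced fragments adjusted for the length of the transcript and the size of the library), which held for 13057 loci and for 5 of the 9 genes, C1rl, C1ra, C1s1, Masp1 and C3. C4b, Cfb, Serping1 and Cd55 were below that level.

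RNA was sequenced from mouse embryonic fibroblasts (MEFs), connective tissue cells grown in culture, to ask which mRNAs depend on the Argonaute protein AGO2 when the endoplasmic reticulum (ER) is stressed. AGO2 is the slicing enzyme of RNA interference. Lines labelled Ago2+/+ or Ago2-/- received DMSO, tunicamycin, which blocks N-linked glycosylation, or 500 nM thapsigargin, which empties the ER of calcium. Each of the 6 groups had 3 libraries, which the deposited table pools into 1 FPKM. The tunicamycin and thapsigargin groups of a genotype were compared with the same DMSO group. The lines were received as a gift and were not authenticated, although the study tested the Ago2-/- line for the absence of AGO2 by western blot. The sources used here do not say how many clones they stand for. Libraries of the 3 groups labelled Ago2+/+ carry the name DCR1 in their titles and in the table, a name that no source used here explains, and those labelled Ago2-/- carry AGO2. No value has a replicate spread, the depth is unknown, and no difference below could be set against replicate error or tested.

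Complement is a cascade of plasma proteins that marks and lyses foreign or damaged cells. In the classical pathway the serine proteases C1r and C1s are carried by C1q and cut C4 and C2. In the lectin pathway the MASP proteases do so on mannose-binding lectin or ficolins. Both lead to C3, which factor B amplifies through the alternative pathway. The C1 inhibitor, made from Serping1, blocks these proteases, and CD55 on the cell surface breaks up the enzymes that cut C3. Most of these proteins are secreted through the ER, chiefly by the liver, but fibroblasts and macrophages make several of them too, and interferons and inflammatory cytokines induce their genes.

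C1rl, C1ra and C1s1 lie side by side on chromosome 6 (GRCm38). C1rl (ENSMUSG00000038527, plus strand) covers 124493113 to 124510643, and C1ra (ENSMUSG00000055172, plus strand) covers 124512405 to 124523443, with 1761 bases between them. C1s1 (ENSMUSG00000038521) covers 124530345 to 124542359 on the minus strand, 6901 bases from C1ra. Bases around their start sites are shown because these neighbours share a position and because C1rl and C1ra had a similar pattern across the groups. The sequence before the start of C3 (ENSMUSG00000024164, chromosome 17, 57203970 to 57228136, minus strand) is shown beside them as the central component. All are RefSeq promoter sequences of GRCm38.p6 read 5′ to 3′ on the strand of the gene, and capitals mark matches to the motifs searched. The table held a window of 250 bases before to 50 bases after the start for 5 of the 9 genes. For C1rl, C1s1 and C3 the 250 bases before the start are printed. RefSeq starts C1ra inside the GENCODE gene, after its first base at 124512405, so only the 25 bases that hold its matches are printed. These 25 bases lie after the RefSeq start of C1ra, not before it.
C1rl, chr6:124492863-124493112, plus strand: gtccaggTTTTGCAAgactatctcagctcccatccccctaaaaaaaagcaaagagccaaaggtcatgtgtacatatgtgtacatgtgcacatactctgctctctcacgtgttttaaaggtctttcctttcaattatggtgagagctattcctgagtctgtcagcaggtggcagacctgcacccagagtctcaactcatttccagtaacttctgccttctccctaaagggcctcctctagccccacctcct
C1s1, chr6:124542360-124542609, minus strand: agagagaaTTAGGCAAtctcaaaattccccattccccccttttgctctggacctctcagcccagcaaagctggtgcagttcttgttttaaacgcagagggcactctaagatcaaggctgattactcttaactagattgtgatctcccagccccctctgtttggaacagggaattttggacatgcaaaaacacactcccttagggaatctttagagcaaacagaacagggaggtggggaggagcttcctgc
C3, chr17:57228137-57228386, minus strand: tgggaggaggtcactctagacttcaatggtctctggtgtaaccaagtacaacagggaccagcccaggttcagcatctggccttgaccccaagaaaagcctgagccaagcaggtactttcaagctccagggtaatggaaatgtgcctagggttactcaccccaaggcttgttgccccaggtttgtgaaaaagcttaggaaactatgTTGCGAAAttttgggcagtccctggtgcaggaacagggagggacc
C1ra, chr6:124512637-124512661, plus strand: TTATGCAAatgcttcaTTCCCTGAA

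The C/EBP-like motif TTGCNNAA, searched on both strands, was in the windows of 4 of the 5 genes, while 10.8% of 32851 RefSeq promoters held it. These 5 genes have 6 promoters in the table, and 4 of the 6 held the motif; a second promoter of C1s1 and that of Cd55 did not. Counted from the start site, its first base was at -243 in C1rl, -242 in C1s1, -45 in C3 and 17 in C1ra. C/EBP factors are transcription factors of the acute-phase response. The STAT-binding motif GAS, TTCNNNGAA, was in the C1ra window alone, at 33 bases after the start and apart from the C/EBP-like match, and in 8.3% of all promoters. None of the 5 genes held the ISRE-like motif (3.44% of promoters), the NF-kB-like motif (5.56%), the core TGACGTGG of the unfolded protein response element (0.676%) or the C/EBP-ATF motif TGATGCAA (0.895%). Promoters of Masp1, C4b, Cfb and Serping1 were not analysed here. A match or its absence says only which letters these windows hold.

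Both primers with which the study amplified C1rl lay in its 3010-base transcript ENSMUST00000049124, from base 425 to base 650. They are shown because they mark the stretch of C1rl that this amplification covers.
C1rl forward primer: ggagtttgtatcttctggtaggag
C1rl reverse primer: gctaagtgtccctgtctggt

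Reads of C1rl can be told from those of C1ra by sequence, since no 50-base window of a C1rl transcript was in a C1ra transcript. The same was not so for C1ra, of whose windows 48.0% were also in its copy C1rb, or for C1s1, of whose windows 21.8% were in C1s2. The copies also have windows of their own, since 59.2% of those of C1rb were in C1ra and 26.9% of those of C1s2 in C1s1. C1rb reached at most 0.0309 FPKM and C1s2 at most 0.0217. How the authors' counting shared out reads of the common windows was not examined. An antisense gene, Gm44096, overlaps the start of C1rl from 124492163 to 124494368 on the minus strand. The sources used here do not say whether the libraries kept strand, and without strand reads of both genes cannot be told apart. Gm44096 was listed at 0 in 4 groups, while under thapsigargin it measured 0.0543 FPKM for the label Ago2+/+ and 0.0538 for Ago2-/-.

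The labels need care. With the label Ago2+/+, Ago2 itself stood at 22.1 FPKM in DMSO, 5.75 with tunicamycin and 17.0 with thapsigargin, and with the label Ago2-/- at 5.61, 15.5 and 20.7. It was thus lower in the labelled knockout under DMSO only, which goes against the label under both stressors. The deposited value does not show which part of the gene gave its reads. Groups are therefore named by their labels, and every direction below rests on them. For 4 of the 18 libraries the genotype labels conflict. Replicate 2 of all 3 groups titled DCR1 has Ago2-/- as its source but Ago2+/+ as its genotype, and so has replicate 3 of the DMSO group titled AGO2. Each was assigned by its title, since pooled values cannot be split. The groups touched are the 3 labelled Ago2+/+ and the DMSO group labelled Ago2-/-. Groups of different labels were close to each other in 3 pairs: the labelled Ago2-/- DMSO group with Ago2+/+ tunicamycin, Ago2-/- tunicamycin with Ago2+/+ thapsigargin, and Ago2-/- thapsigargin with Ago2+/+ DMSO. Between the groups of these crossed pairs 1.86%, 2.07% and 4.47% of the expressed loci differed at least 2-fold in either direction. Between the groups of the other 12 pairs the percentage was 18.98% to 24.17%. Of 8 fibroblast markers 7 reached 1 FPKM in a group, and Thy1 was listed at 0 throughout.

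C1rl, which encodes a protease-like protein related to C1r, stood with the label Ago2+/+ at 1.19 FPKM in DMSO, 0.267 with tunicamycin and 0.359 with thapsigargin. With the label Ago2-/- its levels were 0.161 FPKM in DMSO, 0.785 with tunicamycin and 0.957 with thapsigargin. The order from high to low was Ago2+/+ DMSO, Ago2-/- thapsigargin, Ago2-/- tunicamycin, Ago2+/+ thapsigargin, Ago2+/+ tunicamycin and Ago2-/- DMSO, with a 7.35-fold range. Both stressed groups were below DMSO with the label Ago2+/+ and above it with Ago2-/-. The study picked C1rl from these samples for this pattern, so it is a description and no support.

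C1ra encodes the protease C1r, which activates C1s. With the label Ago2+/+ its levels were 2.37 FPKM in DMSO, 0.377 with tunicamycin and 0.908 with thapsigargin, and with Ago2-/- they were 0.658, 2.43 and 1.65. The range was 6.44-fold, and both stressed groups again lay below DMSO with the label Ago2+/+ and above it with Ago2-/-. The highest group of C1ra was Ago2-/- tunicamycin, not Ago2+/+ DMSO as for C1rl.

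C1s1 encodes C1s, the protease that cuts C4 and C2. In the same order of treatments it measured 0.913, 0.400 and 0.287 FPKM with the label Ago2+/+ and 0.755, 1.11 and 0.309 with Ago2-/-. The thapsigargin groups of both labels were its lowest groups. Unlike C1rl and C1ra, C1s1 was below DMSO under thapsigargin with both labels.

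Masp1 (ENSMUSG00000022887, chromosome 16, 23449417 to 23520815, minus strand), which encodes a protease of the lectin pathway, had the highest mean level of the 9 genes, 9.40 FPKM. The assembled locus that gave its values covers 23451785 to 23614222, which runs past the end of the GENCODE gene. No other gene name is given to that locus. Masp1 levels were 1.22 FPKM in DMSO, 10.6 with tunicamycin and 18.2 with thapsigargin for the label Ago2+/+, and 8.42, 17.2 and 0.729 for Ago2-/-. The range was 24.9-fold. The groups fell into those at or below 1.22 FPKM, Ago2+/+ DMSO and Ago2-/- thapsigargin, and those at or above 8.42, which are the other 4. Of the fibroblast markers, Pdgfrb was low in the same 2 groups as Masp1, at 0.540 and 0.799 FPKM against at least 7.84 in the others. The locus that holds S100a4, S100a3 and Gm42674 was highest in these 2 groups, at 1967 and 1926 FPKM against at most 1004. Its values cannot be assigned to S100a4 alone, and the other markers had other orders. The summed level of the 8 markers takes in that whole locus, which with the marker Vim made up most of the sum in these 2 groups. The sum lay between 2432 and 3629 FPKM and was 3617 and 3427 in these 2 groups. The part of these markers in the levels of Masp1 was not tested. In bulk RNA, fewer cells that express a gene and less RNA per cell cannot be told apart.

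C3, the component on which all pathways meet, was the steadiest of the 5 expressed genes, with a 2.16-fold range. In DMSO, with tunicamycin and with thapsigargin it measured 1.32, 0.866 and 0.974 FPKM for the label Ago2+/+ and 1.37, 1.87 and 0.924 for Ago2-/-. Ago2-/- tunicamycin was its highest group and Ago2+/+ tunicamycin its lowest.

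The other 4 genes were at low levels. C4b (ENSMUSG00000073418, chromosome 17, 34728380 to 34743882, minus strand), a form of the component C4, lay between 0 and 0.121 FPKM and was listed at 0 in the group labelled Ago2+/+ tunicamycin. Of its 50-base windows, 34.6% were shared with its copy C4a. Cfb (chromosome 17, 34856374 to 34862518, minus strand), which encodes factor B, was assembled into 1 locus with C2 and the readthrough gene Gm20547. That locus measured 0.422 FPKM in DMSO, 0.222 with tunicamycin and 0.201 with thapsigargin for the label Ago2+/+ and 0.218, 0.182 and 0.299 for Ago2-/-, values that cannot be assigned to Cfb or C2.

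Serping1 (chromosome 2, 84765387 to 84775444, minus strand) was at 0.134, 0.0187 and 0.005 FPKM with the label Ago2+/+ and at 0.0121, 0.124 and 0.120 with Ago2-/-. The inhibitor gene was thus highest in the 3 groups in which C1rl was highest, at levels of at most 0.134 FPKM at which a few reads can set the order. Cd55 (chromosome 1, 130439027 to 130462744, minus strand) was listed at 0 in all 6 groups, as was its copy Cd55b.

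**Figure D1:**
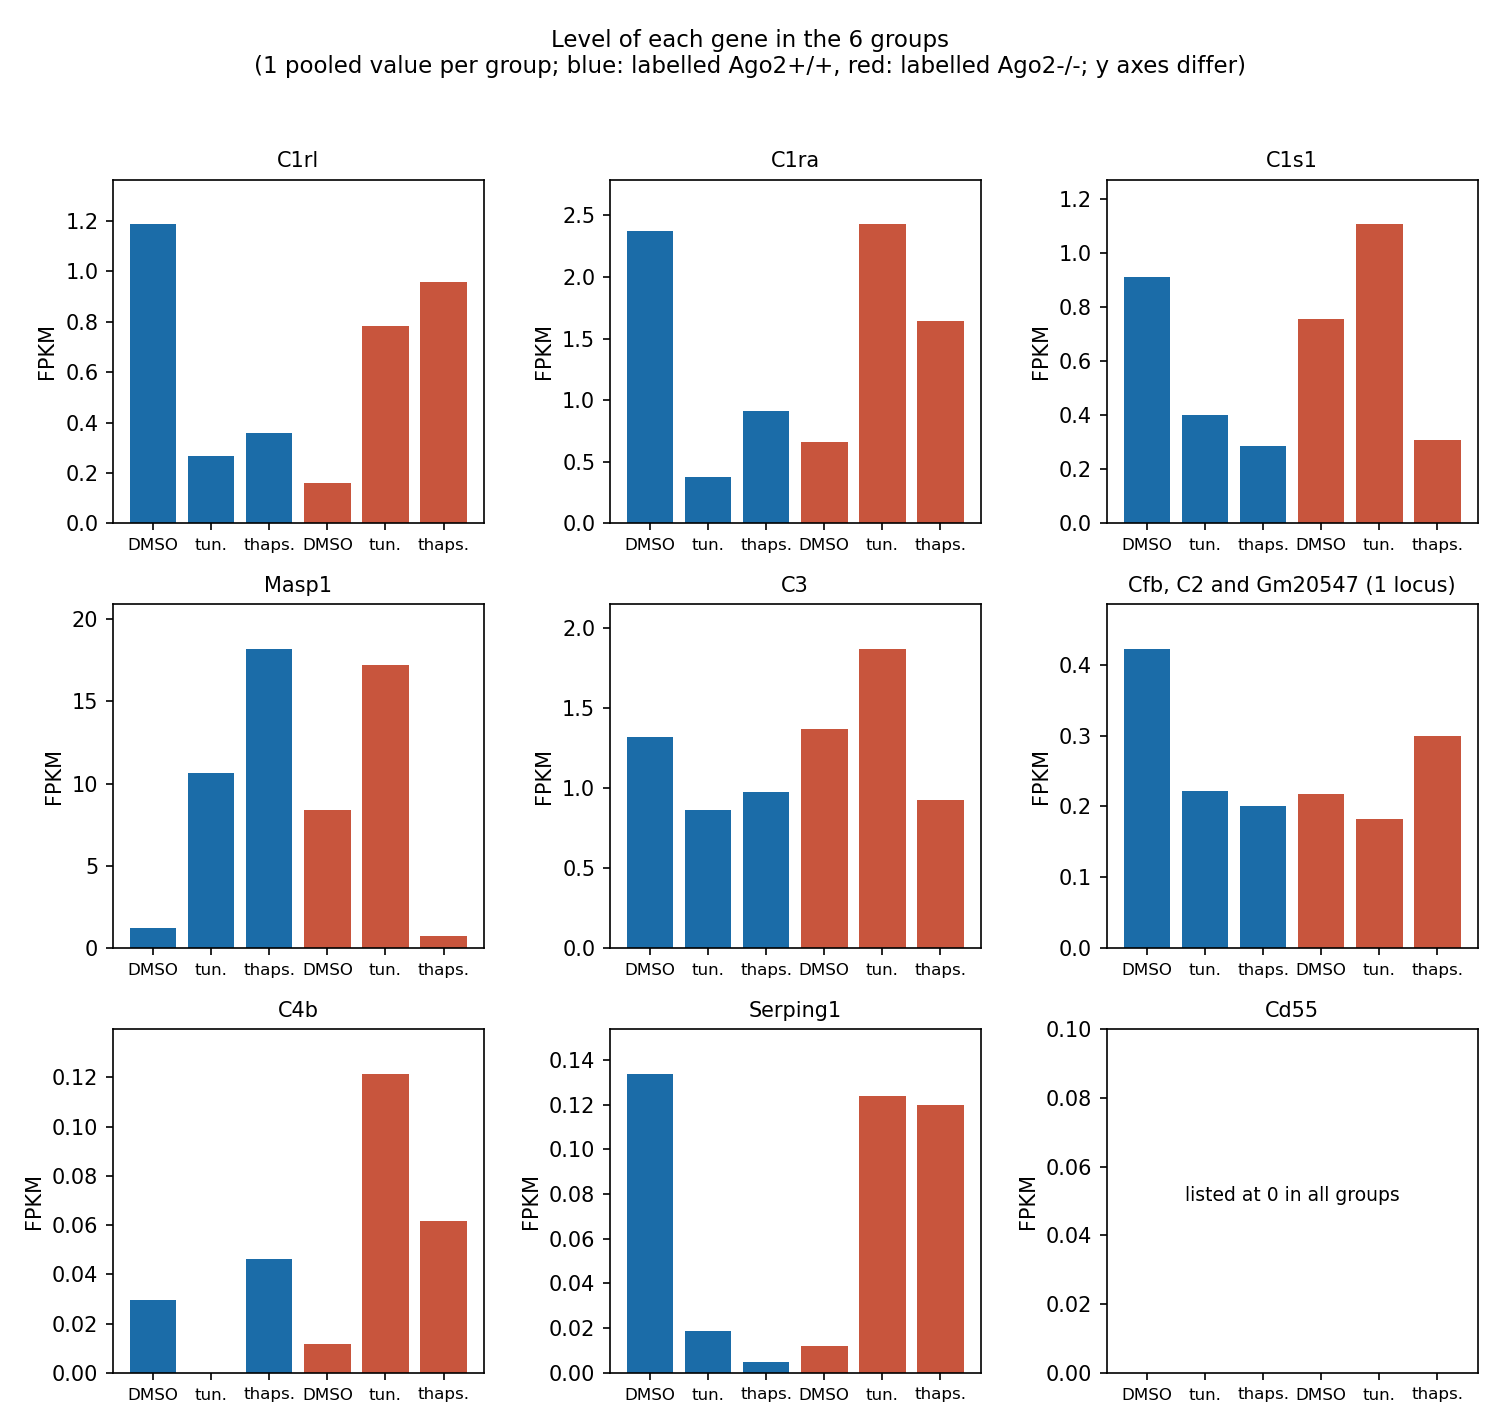
FPKM (y axis, from 0, 1 scale per gene) of the 9 genes in the 6 groups, 1 bar for each pooled value, blue for groups labelled Ago2+/+ and red for Ago2-/-, with tunicamycin written tun. and thapsigargin thaps.; there are no error bars because no replicate values were used. C1rl and C1ra are high under DMSO with the blue label and under both stressors with the red label, Masp1 is at or below 1.22 FPKM in 2 groups, and Cd55 is listed at 0.

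Differences between groups were taken as log2 ratios after 0.1 FPKM was added to both values, which understates differences of low genes. A gene was counted when it differed at least 2-fold, and its count was read against the percentage of all 13057 expressed loci that did. Under tunicamycin with the label Ago2+/+, C1rl (-1.81), C1ra (-2.38) and C1s1 (-1.02) were at least 2-fold below DMSO, a difference shown by 9.4% of all expressed loci. Masp1 (3.02) was at least 2-fold above DMSO, as were 10.5% of loci, and C3 was at -0.56. The median of the 5 expressed genes was -1.02 and that of all expressed loci 0.0035.

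Under thapsigargin with the label Ago2+/+ the same 4 genes were past 2-fold in the same directions. C1rl was at -1.49, C1ra at -1.30 and C1s1 at -1.39, where 8.75% of loci were at least 2-fold lower. Masp1 was at 3.79, where 10.2% of loci were at least 2-fold higher. Both stress comparisons share their DMSO group, so that the value of that group enters each of them.

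With the label Ago2-/-, C1rl (1.76), C1ra (1.74) and Masp1 (1.02) were at least 2-fold above DMSO under tunicamycin, where 12.7% of expressed loci were. No member was as much lower, against 11.4% of loci. C1s1 (0.50) and C3 (0.42) did not reach 2-fold, and the median of the 5 genes was 1.02 against 0 for all expressed loci. Under thapsigargin C1rl (2.02) and C1ra (1.20) were at least 2-fold higher, as were 9.45% of loci. C1s1 (-1.06) and Masp1 (-3.36) were at least 2-fold lower, as were 10.7% of loci. The proteases therefore lay on both sides of DMSO in this comparison, where the median of the 5 genes was -0.52.

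The groups labelled Ago2-/- were next set against those labelled Ago2+/+ under the same treatment. Under DMSO, Masp1 (2.69) was at least 2-fold higher with the label Ago2-/-, as were 10.5% of expressed loci, and C1rl (-2.30) and C1ra (-1.71) were at least 2-fold lower, as were 9.53%. Under tunicamycin C1rl (1.27), C1ra (2.41), C1s1 (1.27) and C3 (1.03) were at least 2-fold higher with the label Ago2-/-, against 12.7% of loci, and none of the 5 was as much lower, against 10.9%. Masp1 was at 0.69, so that all 5 expressed genes were higher in this comparison. C3 was past 2-fold in no other of the 7 comparisons. Under thapsigargin C1rl (1.20) was at least 2-fold higher, as were 8.67% of loci, and Masp1 (-4.46) at least 2-fold lower, as were 10.8%. C1ra was at 0.79, C1s1 at 0.079 and C3 at -0.069.

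**Figure D2:**
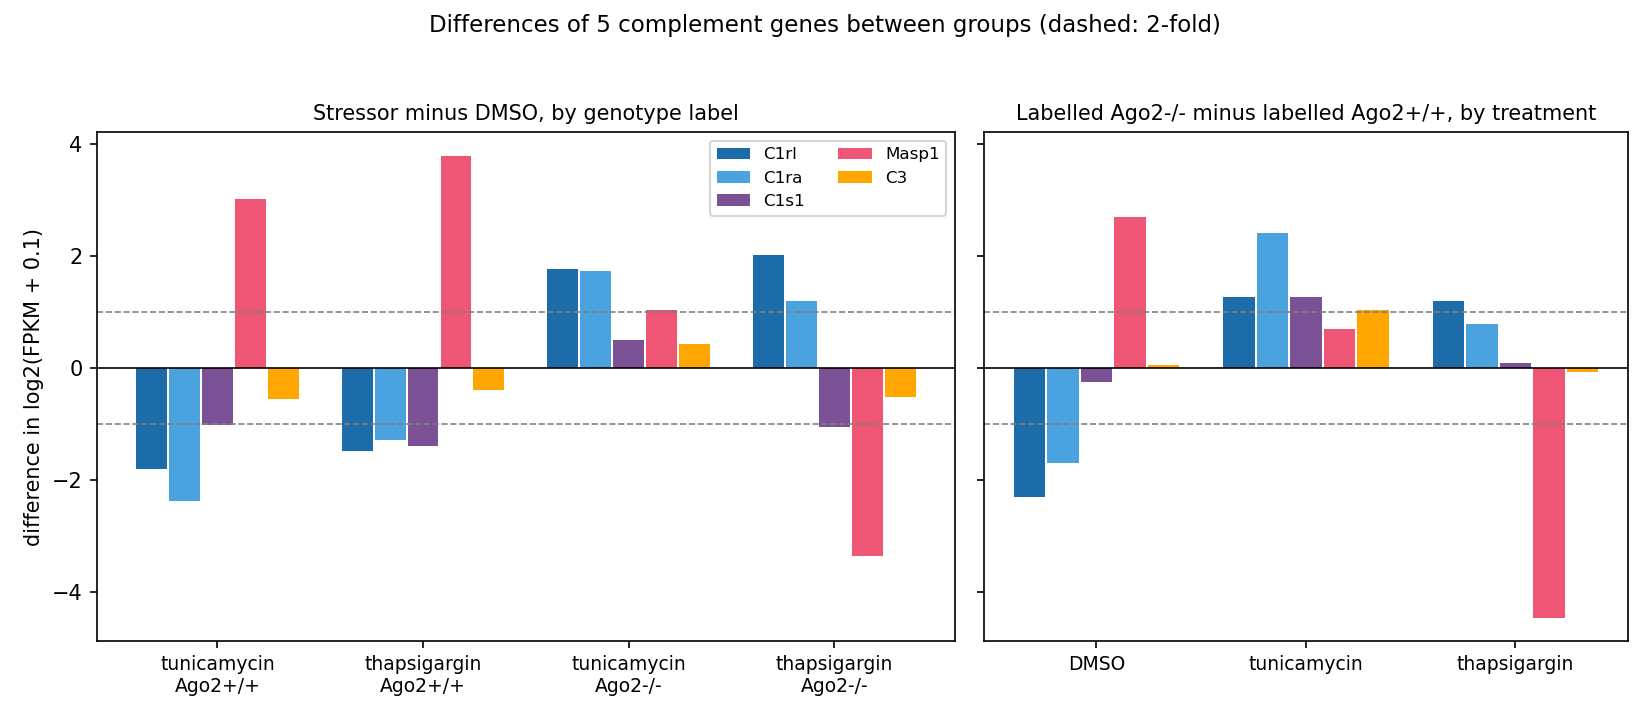
Differences in log2(FPKM + 0.1) (y axis) of the 5 expressed genes, as bars coloured by gene, for stressor minus DMSO within each genotype label (left) and for the label Ago2-/- minus Ago2+/+ within each treatment (right). Dashed lines mark 2-fold; C1rl and C1ra lie below 0 in both left-hand Ago2+/+ comparisons and above 0 in both Ago2-/- comparisons, and Masp1 under thapsigargin goes from 3.79 to -3.36.

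The difference between the labels in the stress response was taken as the log2 change with the label Ago2-/- minus that with Ago2+/+. Under tunicamycin it was 3.57 for C1rl, 4.11 for C1ra, 1.51 for C1s1 and 0.98 for C3, and -2.00 for Masp1. Under thapsigargin it was 3.50 for C1rl, 2.50 for C1ra, 0.32 for C1s1, -0.12 for C3 and -7.15 for Masp1. C1rl and C1ra thus had differences of one sign under both stressors, and Masp1 had the other sign. Each is made of 4 pooled values and was not tested.

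Set side by side in the crossed pairs, the 5 genes differed less for some members than for others. Between Ago2-/- DMSO and Ago2+/+ tunicamycin none was past 2-fold, against 1.86% of expressed loci in either direction. The values lay between -0.49 for C1rl and 0.77 for C1s1. Between Ago2-/- tunicamycin and Ago2+/+ thapsigargin, C1ra (1.33) and C1s1 (1.64) were past 2-fold, against 2.07% of expressed loci. C1rl was at 0.95 there and Masp1 at -0.076. Between Ago2-/- thapsigargin and Ago2+/+ DMSO, C1s1 (-1.31) was past 2-fold, against 4.47% of expressed loci. C1rl was at -0.28 there, C1ra at -0.50 and Masp1 at -0.67. The 2 highest groups of C1rl were Ago2-/- thapsigargin and Ago2+/+ DMSO, as for 17.7% of expressed loci. Those of Masp1 were Ago2-/- tunicamycin and Ago2+/+ thapsigargin, as for 25.4%. No member had Ago2-/- DMSO and Ago2+/+ tunicamycin as its 2 highest groups, as 26.3% of loci did.

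A wider list of 47 complement genes, read in the same way, gave 46 loci without a member, of which 8 were expressed, 24 were above 0 but under the level for expression, and 14 were listed at 0 in all groups. Of its 10 recognition genes only the scavenger lectin gene Colec12 was expressed, with 25.5 FPKM in DMSO, 10.1 with tunicamycin and 9.02 with thapsigargin for the label Ago2+/+ and 11.2, 10.6 and 27.9 for Ago2-/-. It was high in the same 2 groups as C1rl. C1qa, C1qb and C1qc, the subunits of C1q that carry C1r and C1s, were listed at 0 throughout. Of the 6 further proteases only Masp2, of the lectin pathway, was expressed, between 0.304 and 0.997 FPKM. Among 8 components only C4a was, between 0.371 and 1.06 FPKM.

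Of 8 soluble regulators Cfp (properdin, which steadies the alternative pathway's enzyme) and Clu (clusterin, which holds back the membrane attack complex) were expressed. Cfp lay between 1.12 and 3.13 FPKM and Clu between 0.463 and 1.80. The membrane regulators were led by Cr1l, whose product Crry holds back the enzymes that cut C3 on mouse cells. It was at 41.2, 43.4 and 37.1 FPKM with the label Ago2+/+ and 55.9, 34.1 and 42.8 with Ago2-/-, past 2-fold in none of the 7 comparisons. Cd59a, whose product blocks the membrane attack complex, was at 1.21, 0.210 and 3.16 FPKM and at 0.0916, 4.32 and 1.05. Of 9 receptors Cd93 alone was expressed, at 0.115, 3.27 and 0.0264 FPKM with the label Ago2+/+ and 3.93, 0.0266 and 0.134 with Ago2-/-. Both groups in which Cd93 exceeded 3 FPKM were those in which Cd59a was lowest.

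Of these 8 genes, 2 were at least 2-fold higher and 3 lower under tunicamycin with the label Ago2+/+, and 1 and 1 under thapsigargin. With the label Ago2-/- the counts were 1 and 3 under tunicamycin and 2 and 2 under thapsigargin. For the label Ago2-/- against Ago2+/+ they were 3 and 2 under DMSO, 1 and 2 under tunicamycin, and 1 and 1 under thapsigargin. In each direction of these comparisons, 8.67% to 12.7% of all expressed loci were past 2-fold. In every comparison Cd59a was among them, and both directions occurred. In the crossed pairs Clu alone passed 2-fold, in the pair of Ago2-/- tunicamycin with Ago2+/+ thapsigargin.

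**Figure D3:**
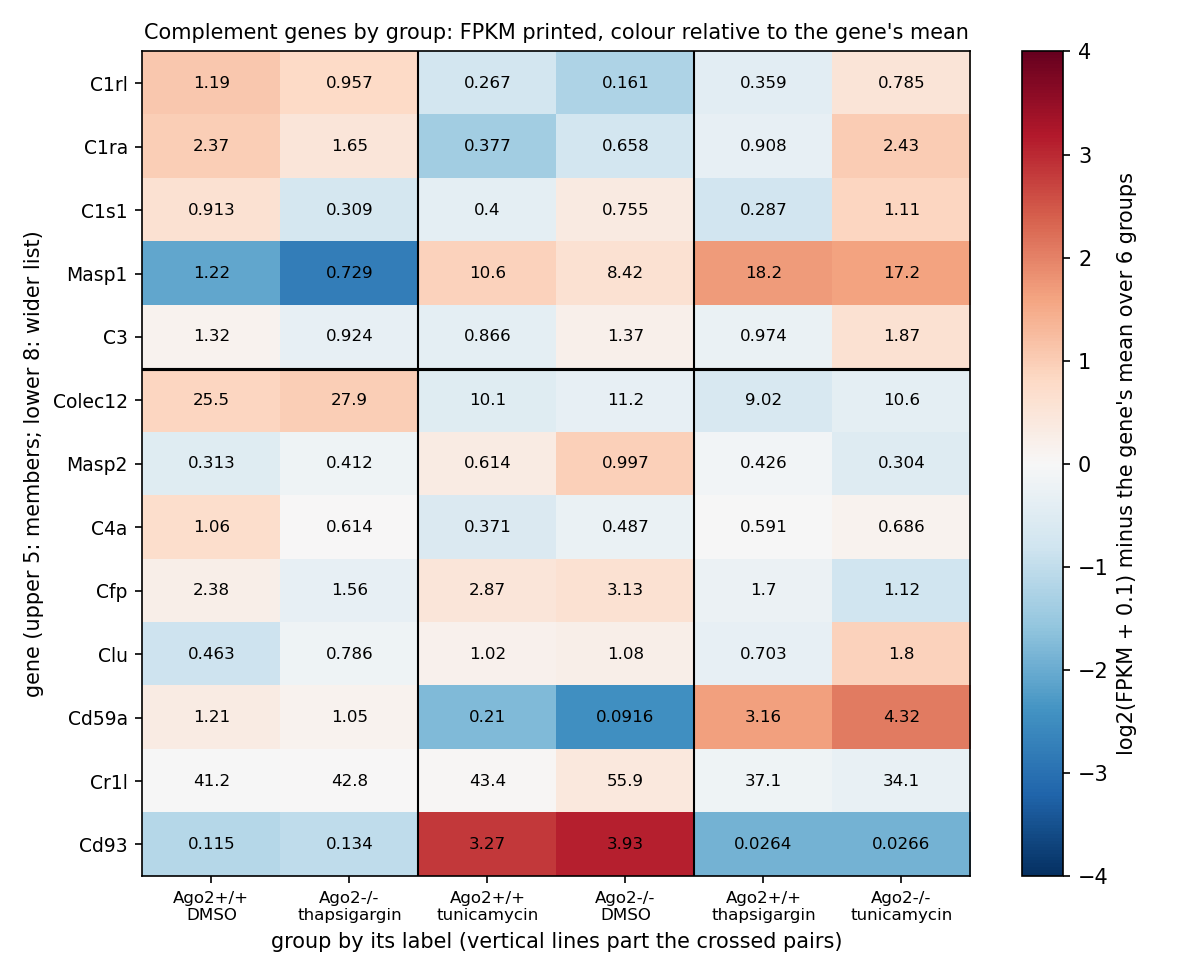
Each cell gives the FPKM of a gene (rows; the upper 5 are the expressed members and the lower 8 the expressed genes of the wider list) in a group (columns, named by label), coloured by log2(FPKM + 0.1) minus the mean of the gene over the 6 groups. Vertical lines part the crossed pairs; Masp1, Colec12, Cd59a and Cd93 differ by less than 2-fold on this scale within each pair, whereas C1s1 is at 0.913 and 0.309 FPKM within the first.

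Among 12 genes of the signals that induce complement, 7 were expressed. Interferons and cytokines were at or near 0: Ifng and Il1b were listed at 0 in all groups, and Il6 reached at most 0.256 FPKM, Ifnb1 0.0865 and Tnf 0.00714. Cebpb, which encodes a factor of the C/EBP family, was highest in Ago2+/+ tunicamycin and Ago2-/- DMSO, the 2 lowest groups of C1rl and C1ra, at 39.9 and 43.0 FPKM, and between 14.2 and 23.0 in the others. Irf1 was highest there too, at 26.1 and 27.8 FPKM. Stat3 lay between 20.2 and 28.0 FPKM, Nfkb1 between 43.5 and 74.4 and Rela between 40.0 and 64.5. Of the 7 expressed genes, none was past 2-fold in either stress comparison with the label Ago2+/+ or between the labels under thapsigargin. Cebpb was at least 2-fold lower under tunicamycin with the label Ago2-/- and higher with that label than with Ago2+/+ in DMSO, and Irf1 was at least 2-fold lower under thapsigargin with the label Ago2-/-. Cebpd, at a mean of 0.858 FPKM, was at least 2-fold higher in both comparisons that hold the group Ago2-/- tunicamycin.

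Markers of other cell types that make complement were read beside these levels. Of 6 macrophage markers only Cd68 and Cd14 reached 1 FPKM in a group, Adgre1 was listed at 0, and Ptprc reached at most 0.0758. Their summed level was 7.61, 15.8 and 4.25 FPKM with the label Ago2+/+ and 17.9, 3.77 and 6.98 with Ago2-/-, so that it was highest in the 2 groups in which C1rl and C1ra were lowest. Most of the sum was Cd14, at 14.4 and 16.6 FPKM in these groups, while Cd68 was lowest there, at 1.13 in both. Its part in those levels was not tested. None of 4 endothelial, 4 epithelial or 4 hepatocyte markers reached 1 FPKM in any group.

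Similarity of pattern was measured as Pearson's r of log2(FPKM + 0.1) over the 6 groups, which fall into 3 close pairs and come from the same pooled libraries. C1rl had r of 0.89 with C1ra, 0.22 with C1s1, 0.22 with C3 and -0.63 with Masp1, and C1s1 had r of 0.92 with C3. The loci most like C1rl were Tubd1 (0.9998), Syt11 (0.995), Eldr (0.991), Tex9 (0.991) and Irf7 (0.990), and 3.69% of 12686 loci with 1 gene name had r of at least 0.9 with it. Those most like C3 were Tmem241 (0.958), Vps41 (0.955), Kdm7a (0.934), Insig1 (0.929) and Gm14719 (0.924), and 0.0631% reached 0.9. Ago2 had r of 0.88 with C1rl and 0.84 with C1ra.

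The other genes beside the cluster on chromosome 6 had narrower ranges where they were expressed. Pex5, a peroxisomal import receptor gene, lay between 17.7 and 28.9 FPKM, Lpcat3, of phospholipid synthesis, between 20.2 and 30.7, and Emg1, of ribosome assembly, between 102 and 160. Clstn3 was under the level for expression, at most 0.447 FPKM.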

How the data were processed

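According to the methods and the submitters' processing notes, the authors checked reads with FastQC 0.11.7, aligned them with HISAT2 2.1.0 to GRCm38, assembled transcripts with StringTie 1.3.4d under Ensembl release 91, and estimated expression with Cuffdiff 2.2.1. The deposited table has 772485 rows, 1 for each of 51499 loci and 15 pairs of groups, with the authors' FPKM of either group. Its columns with the authors' fold changes, statistics, p and q were not used. No value per library was used, so n, SD, depth, intervals and tests are not given. How the authors' counting shared out reads of copies can change low values.

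Libraries were grouped by title. Members and lists were chosen with earlier results of these data known, as were the crossed pairs. Differences were log2 ratios with a pseudocount of 0.1 FPKM, where the mean reached 0.5 FPKM, counted from 2-fold (log2 of 1). Named were all members, genes of the wider and inducer lists whose mean reached 1 FPKM, Ago2, and the 5 loci most like C1rl and C3. Other genes were named after their values were seen, and results for some listed genes are not reported here. Alternatives were pseudocounts of 0.01 and 1, a mean from 1 FPKM, no filter, 1.5-fold and 4-fold, centring on the median locus, and loci with 1 gene name. Gene positions are from GENCODE M21. Shared windows were exact matches of 50 bases between GENCODE transcripts. Scripts (Python 3.11.15, pandas 2.3.3) were tested on simulated data.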

Additional observations from a re-analysis of the deposited data

Results flagged for a closer look

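In 5 cases the log2 changes under a stressor, each at least 2-fold, had opposite signs in the groups labelled Ago2+/+ and Ago2-/-. The share of all 13057 expressed loci that met the same rule was not counted, so these cases cannot be called particular to these genes. Every group is 1 pooled value, so the difference was not tested, and the 2 stressors share the DMSO groups. Given as the change with the label Ago2-/- minus that with Ago2+/+, the difference under tunicamycin was 3.57 for C1rl, from -1.81 to 1.76, and 4.11 for C1ra, from -2.38 to 1.74. Under thapsigargin it was 3.50 for C1rl, from -1.49 to 2.02, 2.50 for C1ra, from -1.30 to 1.20, and -7.15 for Masp1, from 3.79 to -3.36. C1rl was picked by the study for this pattern on the same libraries. Ago2 itself was lower with the label Ago2-/- in DMSO but higher under both stressors, and the part of the labels in the differences was not tested. With a pseudocount of 1 FPKM only C1ra under tunicamycin (-1.29 and 1.05) and Masp1 under thapsigargin (3.11 and -2.45) were still past 2-fold with both labels.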

How the results depend on the processing

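No paired analysis was possible because the table holds 1 pooled value per group, and for the same reason no replicate could be left out. With a pseudocount of 0.01, no filter, centring on the median locus or loci with 1 gene name, the counts of members past 2-fold stayed within 1.5 times the main count in all 10 comparisons, and no member past 2-fold had the opposite sign under any alternative pseudocount or centring. The main counts were 4, 4, 3 and 4 for tunicamycin and thapsigargin with the label Ago2+/+ and then with Ago2-/-, 3, 4 and 2 for the label Ago2-/- against Ago2+/+ under DMSO, tunicamycin and thapsigargin, and 0, 2 and 1 in the crossed pairs. The shares of all expressed loci past 2-fold were 19.0% to 24.2% in the 7 labelled comparisons. In the crossed pairs they were 1.86%, 2.07% and 4.47%. With a pseudocount of 1 FPKM, members past 2-fold were 2, 1, 1 and 1 in the 4 stress comparisons, 1 in the comparison of labels under tunicamycin, 1 under thapsigargin, and 0 in each of the last 2 crossed pairs. With a mean of at least 1 FPKM, which leaves out C1rl and C1s1, they were 2 in both stress comparisons with the label Ago2+/+, 2 under thapsigargin with Ago2-/-, 2 and 1 for the labels under tunicamycin and thapsigargin, and 1 and 0 in the same crossed pairs, and no member kept Ago2-/- thapsigargin and Ago2+/+ DMSO as its 2 highest groups (0). From 4-fold they were 2, 1, 0 and 2 under stress, 1 and 1 for the labels under tunicamycin and thapsigargin, and 0 and 0 in those pairs. From 1.5-fold they were 3, 4 and 2 in the crossed pairs. Over the 10 comparisons the percentage of all loci past the fold, in either direction, ran from 1.1 to 18.0 with a pseudocount of 1, from 1.44 to 22.0 with a mean of at least 1 FPKM, from 0.835 to 10.6 at 4-fold and from 4.56 to 43.1 at 1.5-fold. C1rl was within 2-fold in all 7 labelled comparisons with a pseudocount of 1, at -0.79, -0.69, 0.62 and 0.75 in the stress comparisons, and C1ra was so under thapsigargin with both labels (-0.82 and 0.67). At levels near 1 FPKM or below, the unknown depth limits every value, and the pseudocount decides how large a difference appears.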

Other observations

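Col1a1, the collagen gene that marks fibroblasts, measured 112 FPKM in DMSO, 6.77 with tunicamycin and 521 with thapsigargin for the label Ago2+/+ and 5.97, 651 and 87.1 for Ago2-/-. Its 2 lowest groups were the 2 lowest of C1rl and C1ra. Vim, another marker of fibroblasts, was highest in these groups, at 2634 and 2580 FPKM. The summed level of the 8 fibroblast markers was 3621 and 3629 FPKM there. It was nearly the same, 3617 FPKM, in Ago2+/+ DMSO, the highest group of C1rl. In these 3 groups most of the sum was Vim and the locus that holds S100a4, which went opposite ways. Vim was at 1439 FPKM in Ago2+/+ DMSO. The locus was at 937 FPKM in Ago2+/+ tunicamycin, 1004 in Ago2-/- DMSO and 1967 in Ago2+/+ DMSO. Col1a2, Col3a1 and Pdgfra had the same 2 lowest groups as Col1a1, while Pdgfrb did not. The part of these markers in the levels of C1rl and C1ra was not tested. Col1a1, Vim and the other markers named here were named after their values were seen.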
